A study of Mus musculus with 9 samples.

Results

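The Kruppel-like and NR4A factors described here are 10 transcription factor genes, Klf2, Klf4, Klf5, Klf6, Klf9, Klf10, Klf15, Nr4a1, Nr4a2, and Nr4a3. They were found by their symbols among the 43346 genes of the deposited table, with 1 row for each symbol, and all 10 passed the filter on low counts. RNA-Seq was carried out on lung fibroblasts of aged Col1a1-GFP mice that had received saline (aged sham, 4 mice) or a single dose of bleomycin (aged bleo, 5 mice) into the trachea, which injures the lung and is followed by scarring. All 9 mice carried the Col1a1-GFP reporter, were male and on an FVB background per the study's methods, and were studied at day 30. The labels give their age as 72 weeks in one field and as 18 months in another. Because the sort kept cells with GFP and without CD45, CD31, and EpCAM, the libraries cover cells in which the collagen I promoter was active and leave out other fibroblasts.

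Kruppel-like factors (KLF) are zinc finger proteins that bind GC-rich and CACCC sequences, and each activates or represses genes depending on the partners it recruits. NR4A factors are orphan nuclear receptors that act without a known hormone ligand, so their activity follows mainly from how much of them is made. Many members of both families are immediate early genes, which are induced within minutes to hours by growth factors, cAMP, mechanical force, or glucocorticoids, and in mesenchymal cells several of them are known as brakes or accelerators of growth and matrix production.

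Promoter sequences were looked up to show which known response elements lie upstream of the members, called or not. RefSeq promoters (GRCm38.p6) were matched for 8 of the 10 members, all except Klf5 and Klf10, and 250 bases before each start site were searched on both strands. The core of the cAMP response element (CRE), TGACG, occurred in 7 of these 8 members and in 17.8% of all 32851 promoters, with 4 matches each in Nr4a1, Nr4a2, and Nr4a3. The full CRE, TGACGTCA, occurred in none of the 8 members and in 1.55% of all promoters. A MEF2 motif was found in Klf2 and Nr4a2 (2.92% of all promoters), and the E-box bound by clock proteins, CACGTG, in Klf15 with 2 matches and in Klf4 and Klf6 with 1 each (6.02%). The GC box, GGGCGG, was in 7 of the 8 (32.7%), and the CACCC box, CCACCC, in Klf2 and Nr4a3 (28.1%). The NR4A response element AAAGGTCA (1.34%), the palindromic glucocorticoid response element (0.387%), and the CArG box of serum response factor (1.47%) matched no member. These matches describe letters in the window and not binding. The shares over all promoters were not matched for base composition, and enrichment was not tested. The sequences below are those of the 3 NR4A genes, which can be compared within a family, and of Klf2, Klf4, and Klf15, the KLF members with the largest falls, and are written 5′ to 3′ on the gene's strand, with capitals for the CRE core on either strand in Klf4 and the 3 NR4A genes, for the MEF2 motif in Klf2, and for the E-box in Klf15. The last 29 bases of the window of Klf2 and the last 152 of Nr4a3 are not shown because the deposited gene starts within the window, which leaves 3 of the 4 core matches of Nr4a3 in view and puts both CACCC boxes and the GC box of Nr4a3 in the part not shown, inside the deposited genes.
Klf2 (chr8:72318812-72319032, plus strand): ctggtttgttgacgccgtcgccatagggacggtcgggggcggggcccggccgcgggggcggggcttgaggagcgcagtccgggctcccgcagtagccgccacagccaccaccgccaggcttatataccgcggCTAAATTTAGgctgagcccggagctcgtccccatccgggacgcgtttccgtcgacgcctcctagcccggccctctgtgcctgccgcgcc
Klf4 (chr4:55532476-55532725, minus strand): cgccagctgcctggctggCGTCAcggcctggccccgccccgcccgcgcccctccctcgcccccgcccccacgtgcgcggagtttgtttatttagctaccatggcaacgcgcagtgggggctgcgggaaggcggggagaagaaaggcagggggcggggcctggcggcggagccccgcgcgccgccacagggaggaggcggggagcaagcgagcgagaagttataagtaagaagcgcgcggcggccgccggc
Klf15 (chr6:90462326-90462575, plus strand): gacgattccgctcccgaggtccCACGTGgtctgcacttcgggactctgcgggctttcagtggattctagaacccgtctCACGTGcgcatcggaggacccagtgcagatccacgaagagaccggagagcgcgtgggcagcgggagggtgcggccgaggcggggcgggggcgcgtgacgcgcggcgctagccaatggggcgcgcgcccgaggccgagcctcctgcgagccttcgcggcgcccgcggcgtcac
Nr4a1 (chr15:101266596-101266845, plus strand): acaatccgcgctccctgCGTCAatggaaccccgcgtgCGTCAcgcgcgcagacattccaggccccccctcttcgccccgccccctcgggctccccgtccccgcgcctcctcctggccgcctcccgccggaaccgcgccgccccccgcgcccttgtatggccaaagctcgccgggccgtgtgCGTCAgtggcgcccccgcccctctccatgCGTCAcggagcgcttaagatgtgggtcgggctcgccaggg
Nr4a2 (chr2:57124004-57124253, minus strand): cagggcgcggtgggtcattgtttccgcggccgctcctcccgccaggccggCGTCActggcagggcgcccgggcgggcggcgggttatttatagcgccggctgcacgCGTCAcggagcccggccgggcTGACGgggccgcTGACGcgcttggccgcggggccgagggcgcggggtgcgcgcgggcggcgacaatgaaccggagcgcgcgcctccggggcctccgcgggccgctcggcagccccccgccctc
Nr4a3 (chr4:48045055-48045152, plus strand): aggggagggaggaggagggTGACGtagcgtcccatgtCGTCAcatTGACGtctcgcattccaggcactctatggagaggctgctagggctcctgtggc

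The libraries held 49921946 to 68260600 counts, so that 3 counts, the limit allowed by a count of 0, corresponded to 0.0439 to 0.0601 CPM. CPM is the count of a gene scaled to library size with TMM factors, and it was used to compare 1 gene between libraries. Levels of different genes were compared as FPKM, the deposited value that scales a count to gene length and sequencing depth. Ratios of 2 genes within a library were taken from counts without scaling to length. They serve to compare the groups and do not give relative abundance. A gene was called when the false discovery rate (FDR, the Benjamini-Hochberg adjusted p-value of edgeR's quasi-likelihood test over 16877 genes) was under 0.10 and the fold change over 1.5. The fibroblast genes Col1a1 (4150.5 ± 407 CPM, SD, n = 4, in aged sham) and Pdgfra (912 ± 93.9 CPM) were abundant. The genes of the sorted-out surface proteins, Pecam1 for CD31 (6.12 ± 0.509 CPM) and Epcam (0.592 ± 0.141 CPM), were low, and Ptprc for CD45 stood at 86.9 ± 59 CPM. In bulk libraries, fewer cells of a type and less RNA per cell cannot be told apart.

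Of the 10 members, 5 were called lower in aged bleo (Klf2, Klf4, Klf9, Klf15, and Nr4a1), 1 was called higher (Klf5), and 4 were not called (Klf6, Klf10, Nr4a2, and Nr4a3). Over all genes tested, 11.5% were called lower, 12.3% higher, and 23.8% in either direction. The median log2 fold change of the 10 members was -0.71, beside 0.01 for all 16877 genes. For 7 of the 10 members, including Klf6, the CPM values of the groups did not overlap, compared with 32.2% of all genes (16.1% in each direction).

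**Figure D1:**
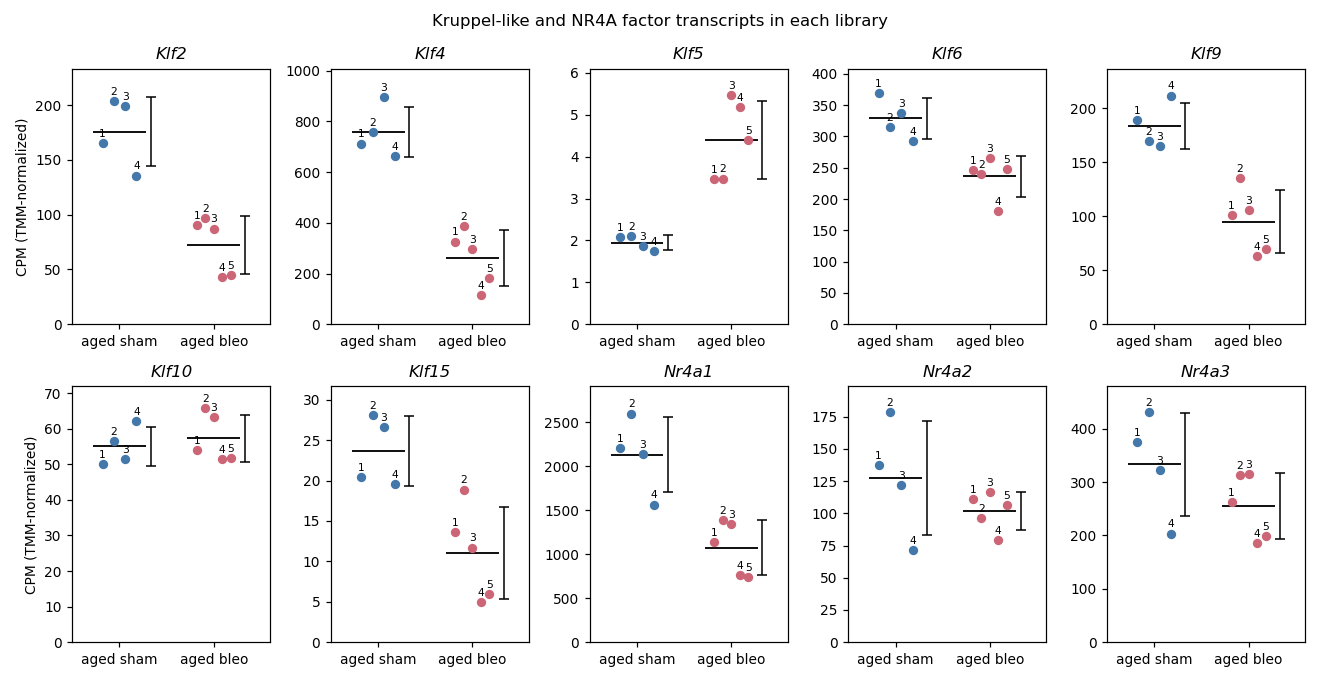
Each panel plots 1 gene, with CPM on a linear axis from 0 and 1 numbered point per library (4 aged sham in blue, 5 aged bleo in red). Horizontal lines are group means and bars the SD. Aged bleo lay below all aged sham libraries for 6 genes and above them for Klf5, and overlapped for Klf10, Nr4a2, and Nr4a3.

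Klf2 and Klf4 are close relatives that are induced by fluid flow and ERK5 in endothelium, where they keep cells quiescent, and Klf4 is also known as a reprogramming factor and as a brake on proliferation. Klf4 (ENSMUSG00000003032, GRCm38 chr4:55527143-55532466, minus strand) was the most abundant KLF member in aged sham by FPKM. Its level was 713, 757, 895 and 664 CPM in aged sham 1 to 4. In aged bleo 1 to 5 it was 326, 389, 297, 116 and 181 CPM. The highest aged bleo library was thus below the lowest aged sham library, and aged bleo 4 and 5 were lower than the other three. The mean fell from 757 ± 99.3 to 262 ± 111 CPM (SD, n = 4 and 5), with a log2 fold change of -1.53 (SE 0.31, FDR 0.00626), the largest fall among the members.

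Klf2 (ENSMUSG00000055148, chr8:72319033-72321656, plus strand) followed the same order of groups at a lower level. It was at 165, 204, 199 and 136 CPM in the aged sham libraries. The aged bleo libraries had 90.5, 96.6, 87.3, 42.9 and 44.8 CPM. No aged bleo library reached the lowest aged sham library, and aged bleo 4 and 5 were again below aged bleo 1 to 3. Klf2 fell from 176 ± 31.9 to 72.4 ± 26.3 CPM, a log2 fold change of -1.28 (SE 0.27, FDR 0.00737). Within a library, the count of Klf2 was 0.231 times that of Klf4 in aged sham and 0.284 times in aged bleo (geometric means), and these ratios overlapped between the groups.

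Both genes are best known from endothelial cells, so the markers of that cell type are given here. Of the 8 endothelial markers, 2 were called higher and 1 lower, beside 12.3% and 11.5% over all genes. Tek fell from 161 ± 12.9 to 28.8 ± 18.8 CPM (FDR 0.00425), and Kdr and Egfl7 rose to 4.97 ± 1.22 and 1.84 ± 0.673 CPM in aged bleo. The summed level of the list was 165 to 204 CPM in aged sham and 29.1 to 73.4 CPM in aged bleo, most of it from Tek. The defining cadherin Cdh5 was at 1.67 ± 0.653 and 1.64 ± 0.416 CPM and the tight junction gene Cldn5 at 0.988 ± 0.475 and 1.05 ± 0.518 CPM, so both genes were low in both groups. The part of endothelial cells in the Klf2 and Klf4 differences was not tested.

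Klf5 was called higher and Klf6 was not called. Klf5 (ENSMUSG00000005148, chr14:99298691-99313405, plus strand) promotes growth in epithelial and smooth muscle cells and had the lowest mean FPKM of the members in both groups, although Klf15 was lower in aged bleo 4 and 5. In the aged sham libraries it was at 2.08, 2.1, 1.87 and 1.75 CPM. Aged bleo 1 to 5 had 3.46, 3.48, 5.47, 5.19 and 4.41 CPM. Every aged bleo library was above every aged sham library, and it was the single member for which this held. Klf5 rose from 1.95 ± 0.17 to 4.4 ± 0.936 CPM (log2 fold change 1.17, SE 0.18, FDR 0.00187). On the FPKM scale it went from 0.476 ± 0.0466 to 1.1 ± 0.241, and with limma on log2(FPKM + 1), a scale that compresses such low values, the difference was 0.50 and did not reach the fold change for a call. Macrophage markers moved in the same direction, with 4 of 8 called higher and a summed level of 141 to 264 CPM in aged sham and 445 to 1502 CPM in aged bleo. Of 8 epithelial markers none was called higher and Ager was called lower, and their sum was 14.2 to 97.8 CPM in aged sham and 16.6 to 51 CPM in aged bleo. The part of either cell type in the Klf5 difference was not tested. Of 5 B cell markers, 4 were called lower, with Cd79a at 2.13 ± 0.594 and 0.856 ± 0.428 CPM, and the sum of the list was 9.69 to 100.2 CPM in aged sham and 13.8 to 115 CPM in aged bleo. Of 7 fibroblast markers, Col1a1, Col1a2, and Col3a1 were called higher and Dcn and Tcf21 lower, and their sum was 24479.7 to 30223 CPM in aged sham and 54367 to 71782 CPM in aged bleo. Beside these marker counts, 12.3% of all genes were called higher and 11.5% lower. The part of B cells and of fibroblast markers in the members' differences was not tested.

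Klf6 (ENSMUSG00000000078, chr13:5861489-5870393, plus strand) is an injury-induced factor expressed in most cells. It was at 369, 315, 337 and 293 CPM in aged sham. Aged bleo libraries had 247, 239.5, 266, 181 and 248 CPM. The groups did not overlap, with aged bleo 4 the lowest. The means were 329 ± 32.2 and 236 ± 32.5 CPM, and the log2 fold change of -0.48 (SE 0.12, FDR 0.0154) passed the FDR threshold but was under 1.5-fold, so Klf6 was not called. Relative to Klf6, the count of Klf4 was 2.30 times as high in aged sham and 1.02 times as high in aged bleo. These ratios did not overlap between the groups.

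Klf9 and Klf15 are both induced by glucocorticoids and cycle with the circadian clock, Klf9 as a repressor of proliferation and Klf15 as a regulator of amino acid and lipid use. Klf9 (ENSMUSG00000033863, chr19:23141226-23166911, plus strand) was at 189, 169.8, 165 and 212 CPM in aged sham. In aged bleo it was at 101, 135, 106, 63.2 and 69.4 CPM. The groups were separate, and the 2 lowest libraries were aged bleo 4 and 5. Klf9 fell from 184 ± 21.3 to 94.9 ± 29.2 CPM (log2 fold change -0.95, SE 0.21, FDR 0.00904). A microRNA gene, Mir1192, lies within Klf9 and had 72 counts over the 9 libraries beside 67729 for Klf9.

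Klf15 (ENSMUSG00000030087, chr6:90462576-90475238, plus strand) was expressed at 20.4, 28.2, 26.6 and 19.6 CPM in aged sham. Its aged bleo values were 13.6, 18.9, 11.7, 5.02 and 5.91 CPM. Aged bleo 2 came close to aged sham 4 without overlap, while aged bleo 4 and 5 were the lowest. The mean fell from 23.7 ± 4.33 to 11 ± 5.73 CPM, a log2 fold change of -1.11 (SE 0.36, FDR 0.0406), with the widest interval of the called members (-1.92 to -0.29, 95%). Without aged bleo 4 and 5, an alternative chosen after the values were seen, it was -0.69 (FDR 0.0315) and still called. The count of Klf2 was 7.42 times that of Klf15 in aged sham and 6.97 times in aged bleo, with overlapping ratios.

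Klf10 (ENSMUSG00000037465, chr15:38294413-38300707, minus strand) is induced early by TGF-β and relays part of its growth inhibition. It was at 50.2, 56.4, 51.6 and 62.2 CPM in aged sham. The aged bleo libraries had 54.1, 65.8, 63.2, 51.6 and 51.7 CPM. The values were interleaved between the groups. The means were 55.1 ± 5.43 and 57.3 ± 6.73 CPM, and the log2 fold change was 0.06 (95% interval -0.17 to 0.28, FDR 0.697), which leaves no 1.5-fold change in either direction within the interval. Because Klf4 fell, the count of Klf4 went from 13.7 times that of Klf10 in aged sham to 4.21 times in aged bleo.

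The 3 NR4A genes bind the same response element, and Nr4a1 is known in fibroblasts as a brake on TGF-β signaling. Nr4a1 (ENSMUSG00000023034, chr15:101266846-101274792, plus strand) was the most abundant of all 10 members in every library. It was at 2210.2, 2599, 2142 and 1564 CPM in aged sham. The aged bleo values were 1141, 1393, 1342, 762 and 738 CPM. No aged bleo library reached aged sham 4, the lowest of its group. Nr4a1 fell from 2129 ± 427 to 1075 ± 312 CPM (log2 fold change -0.99, SE 0.23, FDR 0.0121).

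Nr4a3 (ENSMUSG00000028341, chr4:48045153-48086447, plus strand), also called NOR1, was at 375, 431, 322 and 204 CPM in aged sham. Aged bleo libraries had 263, 313, 315, 187 and 198 CPM. Aged sham 4 was the lowest of its group and lay within the aged bleo range, so the groups overlapped. The log2 fold change was -0.38 (95% interval -0.92 to 0.15, FDR 0.235), and Nr4a3 was not called.

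Nr4a2 (ENSMUSG00000026826, chr2:57106830-57124003, minus strand), also called NURR1 and known for its part in dopamine neurons, had 137, 178, 122 and 71.6 CPM in aged sham. The aged bleo libraries had 111, 96.5, 116, 79 and 107 CPM. The highest and the lowest value of all 9 libraries were both from aged sham. The log2 fold change was -0.32 (95% interval -0.83 to 0.19, FDR 0.299), and Nr4a2 was not called. For both Nr4a2 and Nr4a3 the interval includes no change as well as a fall of over 1.5-fold.

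Ratios between the NR4A genes were taken within each library. The count of Nr4a1 was 17.3 times that of Nr4a2 in aged sham and 10.3 times in aged bleo, and 6.53 and 4.16 times that of Nr4a3. Neither ratio overlapped between the groups, whereas the ratio of Nr4a2 to Nr4a3 (0.377 and 0.405) did. Such ratios need no scaling between libraries. Of all 45 pairs of members, 23 had ratios that did not overlap between the groups, every pair with Klf5 among them. The pairs share genes, and the share over pairs of all genes was not computed, so nothing is read from this count. No test was made of the ratios.

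By FPKM, Nr4a1 made up 91.0% ± 1.09 of the summed NR4A level in aged sham and 86.2% ± 1.76 in aged bleo (SD, n = 4 and 5). The share of Nr4a3 was 5.79% ± 0.612 and 8.57% ± 0.441. The NR4A sum went from 399 ± 89.1 to 215 ± 54.0 FPKM. Among the 7 KLF members, the summed level went from 213 ± 21.4 to 101 ± 27.0 FPKM. Klf4 gave 48.9% ± 2.34 of this sum in aged sham and 35.0% ± 6.08 in aged bleo, while the share of Klf6, which was not called, was 15.4% and 24.9%.

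**Figure D2:**
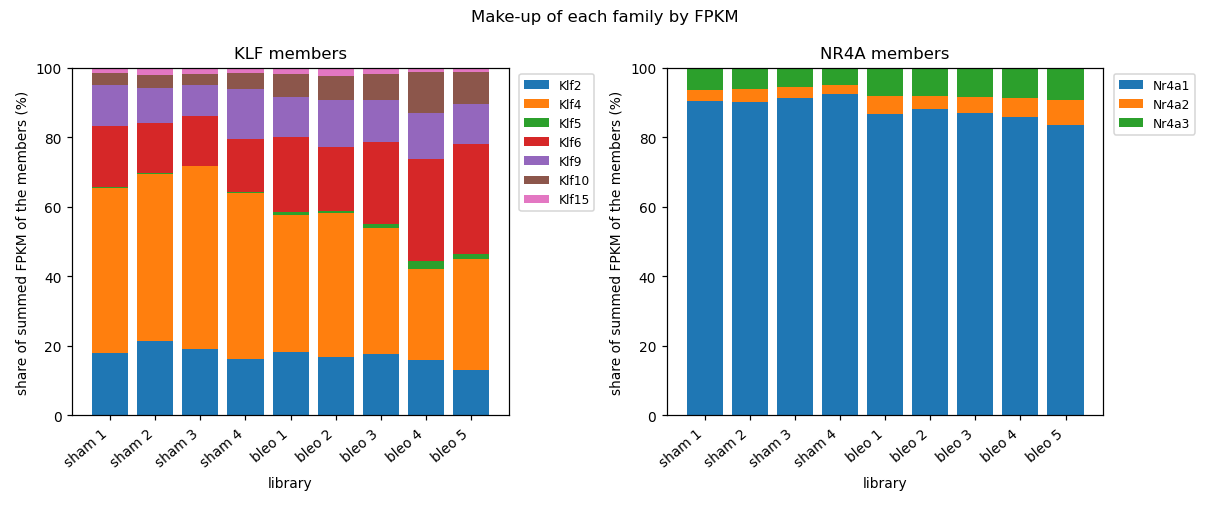
Stacked bars give, for each library, the share in percent of each gene in the summed FPKM of the 7 KLF members (left) and the 3 NR4A members (right). Klf4 had the largest share in all 4 aged sham libraries, and Nr4a1 was between 83.4% and 92.4% of the NR4A sum in every library.

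Ordered by FPKM, the aged sham fibroblasts had Nr4a1 at 362 ± 77.4, Klf4 at 104 ± 14.9, Klf2 at 40.1 ± 7.86, Klf6 at 32.7 ± 3.41, Klf9 at 23.6 ± 2.34, Nr4a3 at 23.4 ± 7.09, Nr4a2 at 13.2 ± 4.74, Klf10 at 7.59 ± 0.672, Klf15 at 3.94 ± 0.778, and Klf5 at 0.476 ± 0.0466. Neighbours whose ranges overlapped were Klf2 and Klf6, Klf9 and Nr4a3, Nr4a3 and Nr4a2, and Nr4a2 and Klf10. In aged bleo, the order was Nr4a1 at 186 ± 49.7, Klf4 at 36.7 ± 15, Klf6 at 24 ± 2.82, Nr4a3 at 18.3 ± 3.92, Klf2 at 16.8 ± 5.8, Klf9 at 12.4 ± 3.56, Nr4a2 at 10.8 ± 1.38, Klf10 at 8.08 ± 0.746, Klf15 at 1.86 ± 0.937, and Klf5 at 1.1 ± 0.241. There, the single pairs of neighbours without overlap were Nr4a1 with Klf4 and Klf10 with Klf15. Among the 16877 genes tested, Nr4a1 had FPKM rank 29 in aged sham and 65 in aged bleo, Klf4 rank 168 and 498, Klf2 rank 439 and 1259, and Klf15 rank 5397 and 9061.

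**Figure D3:**
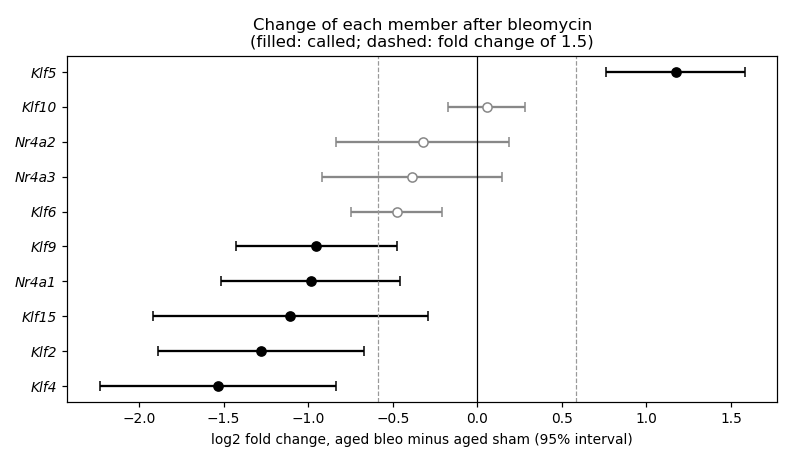
Points are the log2 fold changes of aged bleo minus aged sham and bars their 95% intervals from edgeR. Filled points passed both thresholds, and dashed lines mark a fold change of 1.5. Klf4 is lowest at -1.53 and Klf5 highest at 1.17, and the intervals of Klf10, Nr4a2, and Nr4a3 include 0.

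The aged bleo libraries were not alike. For 7 of the 10 members (Klf2, Klf4, Klf9, Klf10, Klf15, Nr4a1, and Nr4a3), aged bleo 4 and 5 were both below aged bleo 1 to 3. Aged bleo 1, 2, and 3 were each below all aged sham libraries for 6 members, and aged bleo 4 and 5 for 7 members. Shares over all genes were not computed for these counts. The split was not limited to the members. Chi-square per degree of freedom, which measures how far 2 libraries differ over their genes, was 31.6 to 69.8 among aged bleo 1 to 3. Between these and aged bleo 4 or 5 it was 144 to 412, and between aged bleo 4 and 5 it was 95.4. Library names carry a number after a hyphen whose meaning is not stated. Aged bleo 4 is the single aged bleo library that shares this number with the aged sham libraries. Aged bleo 1 to 3 share another number, and aged bleo 5 has a number of its own. The split of the aged bleo libraries thus falls along this number, and what it stands for cannot be told apart from the split. Without aged bleo 4 and 5 the same 6 members were called, with log2 fold changes of -1.17 for Klf4, -0.95 for Klf2, -0.73 for Nr4a1, and -0.69 for Klf9. Aged bleo 4 also had the highest sum of the 6 pan-leukocyte markers (576 CPM) and the 8 macrophage markers (1502 CPM) among the aged bleo libraries, but in aged bleo 5 the leukocyte sum was 152 CPM and lay within the range of aged bleo 1 to 3, and the macrophage sum was 860.00 CPM, above that range. The part of these cells in the members' values was not tested. Without aged sham 4 and aged bleo 4, which had the most leukocyte transcripts, the same 6 members were called, and the log2 fold changes of Nr4a2 and Nr4a3 were -0.46 (FDR 0.0447) and -0.49 (FDR 0.0777), both under 1.5-fold.

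**Figure D4:**
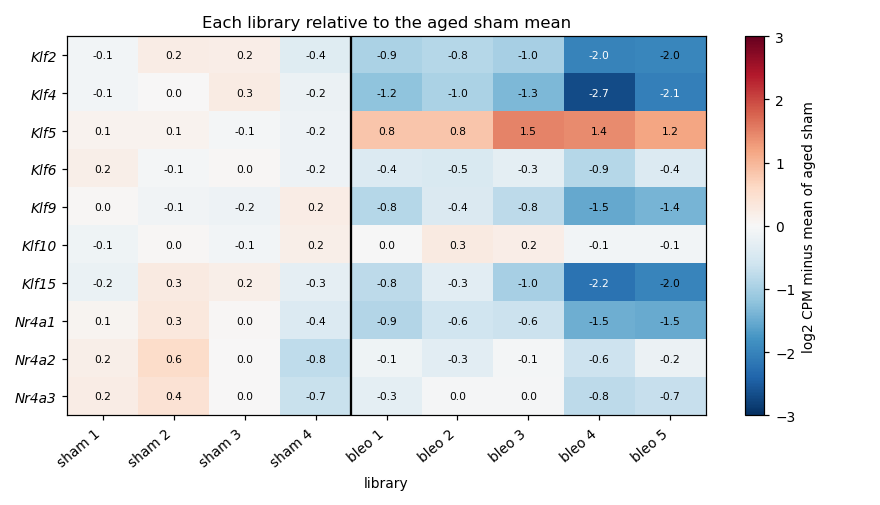
Each cell gives the log2 CPM of a gene in a library minus the mean log2 CPM of the aged sham libraries, with blue below and red above that mean and the black line between the groups. Aged bleo 4 and 5 have the deepest blue in Klf2, Klf4, Klf9, Klf15, and Nr4a1, while Klf5 is red in all 5 aged bleo libraries.

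After each group's mean was taken out, the members varied together across the 9 libraries to different degrees. These correlations are descriptions over libraries that share their RNA and depth. Klf15 went with Klf2 (Pearson's r 0.96) and Klf4 (r 0.96), Klf2 with Klf4 (r 0.93) and Nr4a1 (r 0.94), and Nr4a1 with Nr4a3 (r 0.94). Among the members, Klf9 was closest to Klf4 (r 0.84), Klf15 (r 0.83), and Klf10 (r 0.79) and showed no such relation to Nr4a2 (r -0.03), and Klf5 ran against Klf4 (r -0.56).

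Among 11887 tested genes with a mean of at least 5 CPM, the patterns most like that of Klf2 were Sema6c (r 0.999), Plcd1 (r 0.992), and Adamtsl2 (r 0.992), and those most like Klf4 were Fam129a (r 0.992), Ppp6r2 (r 0.992), and Slc25a23 (r 0.991). Klf15 was followed most closely by Zfp672 (r 0.995), Hdac7 (r 0.994), and Smarcc2 (r 0.992), and Klf9 by Gm11816 (r 0.994), March3 (r 0.989), and Itga11 (r 0.987). For Klf6 they were Parm1 (r 0.977), Slc8a1 (r 0.976), and Dlg1 (r 0.971), and for Klf10 Tmem135 (r 0.938), Trappc12 (r 0.925), and Rps6ka5 (r 0.916). The low Klf5 was matched less closely, by Atp5sl (r 0.952), Psmd3 (r 0.923), and the MHC class II gene H2-Ab1 (r 0.905). For Nr4a1 the nearest were Eif4e3 (r 0.989), Atrip (r 0.988), and the small Maf factor Maff (r 0.986), for Nr4a2 Rab6b (r 0.934), Ubl4 (r 0.932), and Yap1 (r 0.93), and for Nr4a3 Icmt (r 0.969), Papd7 (r 0.963), and Midn (r 0.962). With 9 libraries and this many genes, high values of r arise readily, and the split of the aged bleo libraries remains in these values too.

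The rest of the family was examined next. Of 10 other KLF genes, 7 passed the filter and 2 were called, both lower. Klf3, a repressor that recruits CtBP, fell from 96.2 ± 8.03 to 50.8 ± 9.97 CPM (log2 fold change -0.92, FDR 0.00161) and Klf12 from 5.83 ± 1.22 to 3.72 ± 0.951 CPM (log2 fold change -0.65, FDR 0.0476). Klf7, Klf8, Klf11, Klf13, and Klf16 were not called, and Klf1, Klf14, and Klf17 were too low to test. Their median log2 fold change was -0.28, and 2 of 7 genes is near the 23.8% called over all genes. In the SP factors, the sister family that binds GC boxes, 7 of 9 genes were tested and 2 were called, both higher. Again, 2 of 7 is near the 23.8% called over all genes. The median log2 fold change of the SP genes was -0.24, with 5 of the 7 values below 0. No difference between the families was tested. Sp7, the osteoblast factor osterix, rose from 0.0844 ± 0.0444 to 1.69 ± 0.247 CPM (log2 fold change 4.32, FDR 6.08e-05) and Sp6 from 0.457 ± 0.112 to 1.56 ± 0.246 CPM (log2 fold change 1.77, FDR 0.000616). Sp7 had only a few counts in each aged sham library (0.0323 to 0.136 CPM) and passed the filter through aged bleo. When at least 10 counts were required in every library, 13 of these 14 KLF and SP genes were tested, with 1 call higher and 2 lower. The ubiquitous Sp1 was at 156 ± 9.2 and 128 ± 15.2 CPM, and Sp1, Sp2, and Sp4 had log2 fold changes of -0.29, -0.35, and -0.33 (FDR 0.041, 0.0115, and 0.0199), all under 1.5-fold and not called.

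The genes that act upstream of or with the members are given as fixed lists, some of which share genes (Per1, Dusp1, and Klf11). In the ERK5 and MEF2 pathway, which drives Klf2, Klf4, and Nr4a1, 2 of 11 genes were called, a share below the 23.8% of all genes. Mef2c rose from 45 ± 2.75 to 76.2 ± 6.64 CPM (log2 fold change 0.76, FDR 0.000229). Hdac7, which represses MEF2 targets, fell from 159.9 ± 7.92 to 106 ± 23.3 CPM (log2 fold change -0.59, FDR 0.0163). Map3k3, a kinase upstream of ERK5, had a log2 fold change of -0.58 (FDR 0.00396), just under 1.5-fold, and its groups did not overlap. The kinase ERK5 itself, Mapk7, was at 36.7 ± 4.01 and 32.9 ± 3.76 CPM (FDR 0.268). None of the 6 KLF corepressors and neither tested retinoid X receptor, the partners of Nr4a1 and Nr4a2, was called. At an FDR under 0.10 regardless of fold, Ctbp2, Hdac2, and Rxrb were on the higher side.

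CREB and its coactivators (5 genes) had no call, with Crtc3 the lowest at a log2 fold change of -0.41 (FDR 0.0596). The genes that cAMP and CREB induce were split, with 2 of 8 higher and 3 lower, beside 12.3% and 11.5% over all genes. Areg, an EGF receptor ligand, rose from 0.411 ± 0.199 to 7.32 ± 2.2 CPM (log2 fold change 4.14, FDR 0.000154) and Rgs2, a regulator of G protein signaling, from 45.2 ± 12.6 to 189 ± 28.1 CPM (log2 fold change 2.06, FDR 0.000184). Ptgs2, the inducible cyclooxygenase, fell from 1207 ± 177 to 427 ± 93.1 CPM (log2 fold change -1.50, FDR 0.000478). Crem and Per1 were called lower as well.

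Of 16 immediate early genes, 11 were called lower and none higher, with a median log2 fold change of -0.79. The background for lower calls is the 11.5% given above. Atf3, a stress-induced repressor, fell from 892 ± 176 to 198 ± 91.9 CPM (log2 fold change -2.17, FDR 0.00177). Zfp36, which destabilizes cytokine mRNA, fell from 3252 ± 321 to 1231 ± 469 CPM (log2 fold change -1.40, FDR 0.00543). Socs3 and Fosb had log2 fold changes of -1.23 (FDR 0.00859) and -1.20 (FDR 0.0113). Ier3 was the one gene of the list with a positive value, 0.30 (FDR 0.134). These genes are also induced while tissue is dissociated, and their summed level was 19285 to 24845 CPM in aged sham and 7234 to 15214 CPM in aged bleo, lowest in aged bleo 4 and 5. The part of dissociation in the differences of the members was not tested.

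Among the glucocorticoid receptor and its targets, which include regulators of the same kind as Klf9 and Klf15, 7 of 11 genes were called lower and 1 higher (median log2 fold change -0.86). The shares over all genes were 11.5% lower and 12.3% higher. The metallothioneins Mt1 and Mt2 fell from 358 ± 56.3 to 130.1 ± 36.5 and from 326 ± 57.8 to 128 ± 51.5 CPM (FDR 0.00115 and 0.00593). Zbtb16 had a log2 fold change of -1.40 (FDR 0.0113) and Cebpd of -1.36 (FDR 0.0052). Fkbp5, a co-chaperone of the receptor that it strongly induces, was the gene that rose, from 53.1 ± 7.48 to 82.8 ± 9.01 CPM (FDR 0.00347). The receptor gene Nr3c1 was at 242 ± 13.5 and 196 ± 28 CPM and not called.

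Of 13 circadian clock genes, 8 were called lower and none higher, beside 11.5% lower and 12.3% higher over all genes. Hlf, an output gene of the clock, fell from 51.2 ± 19.1 to 20.1 ± 10.8 CPM (log2 fold change -1.35, FDR 0.0254) and the repressor Cry2 from 58.6 ± 5.98 to 25.3 ± 7.66 CPM (log2 fold change -1.21, FDR 0.00265). Npas2 and Nr1d1 had log2 fold changes of -0.98 (FDR 0.0877) and -0.95 (FDR 0.0383), and Arntl, the core activator, of -0.21 (FDR 0.454). The hour at which each lung was taken is not given in the sources used here, so a difference in hour and the treatment cannot be told apart.

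The early TGF-β response, the setting in which Klf10 and Nr4a1 are known in fibroblasts, had 2 of 11 genes higher and 1 lower, a share near the 23.8% of all genes. Ltbp2, a matrix protein related to the TGF-β binding proteins, rose from 86.5 ± 32.8 to 1631 ± 308 CPM (log2 fold change 4.24, FDR 2.32e-05) and Pmepa1, a feedback inhibitor of the pathway, from 271 ± 38.1 to 561 ± 36.3 CPM (log2 fold change 1.05, FDR 0.000213). Tgfbi fell from 817 ± 109 to 294 ± 64.1 CPM (log2 fold change -1.47, FDR 0.000347). Markers of smooth muscle cells and pericytes, which also express several of the members, had 3 of 7 genes lower and 1 higher, beside 11.5% and 12.3% over all genes. The markers' sum was 1435 to 2793 CPM in aged sham and 834 to 1816 CPM in aged bleo, with Myh11 at 1375 ± 366 and 616 ± 291 CPM and Des at 233 ± 63 and 307 ± 23.8 CPM. The part of these cells in the members' differences was not tested.

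**Figure D5:**
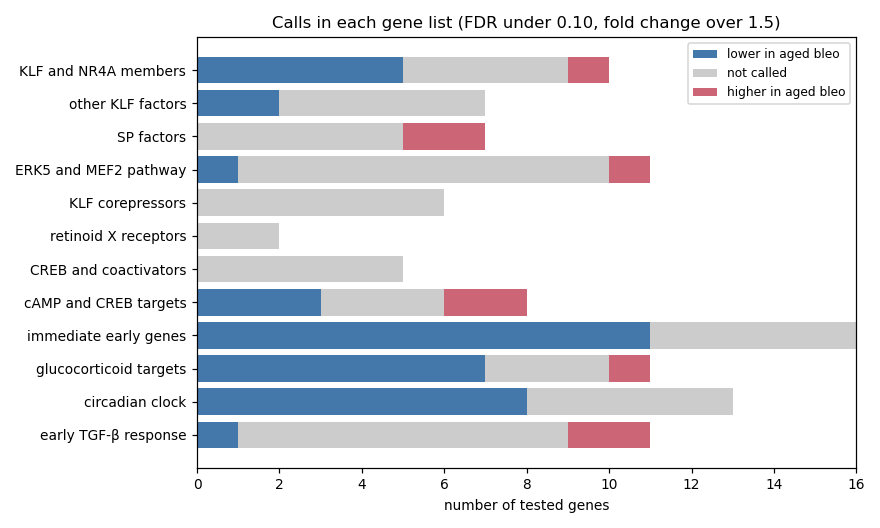
Bars give, for each gene list, the number of tested genes called lower (blue), not called (grey), and called higher (red) in aged bleo. The immediate early and clock lists have 11 and 8 lower calls and no higher call, while the corepressors, retinoid X receptors, and CREB factors have none.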

How the data were processed

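Per the labels, RNA from sorted lung fibroblasts of 4 aged sham and 5 aged bleo mice was sequenced after poly-A enrichment (TruSeq). The submitters' processing notes name STAR 2.5.2b, featureCounts, and mm10 (GRCm38). Whether counting used strand is not given in the sources used here. The authors deposited raw counts and FPKM values for 43346 genes. The deposited FPKM values are scaled by length, and their implied library totals are 2.27 to 2.42 times the summed counts.

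Libraries were grouped by their labels. Genes averaging 25 counts or more were tested with edgeR 4.0.16 (TMM, glmQLFit and glmQLFTest, no covariate) in R 4.3.3, where the study used a moderated test. Intervals use the test's degrees of freedom. Standard errors come from the fold change and its test. P-values weigh the difference of the groups against the spread between mice within a group. All aged sham libraries share the number after the hyphen, and among the aged bleo libraries only aged bleo 4 carries it. Whatever that number stands for is thus nearly aligned with the treatment, and the test does not separate them. The tests were tried on simulated counts. Alternatives were DESeq2 1.42.0, limma 3.58.1 on log2 CPM (prior count 2) and on log2(FPKM + 0.1) and log2(FPKM + 1), other normalizations and filters, a robust fit, stricter thresholds, libraries left out, and a replicate block. No pair of libraries of a group agreed within sampling noise.

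All 10 members are named, as are up to 4 called genes of each list with the largest fold changes, and the 3 genes most like each member. Other list genes and markers were named after their values were seen. Members and lists were chosen with earlier results of these data known. Promoters are from RefSeq. Limits from counts cover counting error only.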

Additional observations from a re-analysis of the deposited data

How the results depend on the processing

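With each library left out in turn, 6 of the 10 members were called every time, other KLF and SP genes numbered 3 to 4 calls (4 with all libraries), and the pathway lists 28 to 39 (34 with all libraries). No member's fold change changed sign in the 22 alternatives, and the count of members called lay between 4 and 6. With FDR under 0.05 and a fold change over 2, calls fell to 2 in the other KLF and SP genes and to 17 in the pathway lists, and Klf9 and Nr4a1 were not called. On log2(FPKM + 1) the other KLF and SP genes had 1 call and Klf5 was not called. Over all genes, calls ranged from 1785 on log2(FPKM + 1) to 4978 without a filter, with 2158 under the stricter thresholds. The FDR of Klf15 lay between 0.00737 and 0.098. With the replicate number as a block, there were 6 calls among the members, 3 in the other KLF and SP genes, 27 in the pathway lists, and 3536 over all genes. Whether the numbers pair mice is not stated in the labels. Same-numbered libraries had correlations of 0.092, 0.062, -0.13, and 0.33 of their deviations, and differently numbered ones -0.21 to 0.25. So few correlations cannot decide it. Without aged bleo 4 and 5, the pathway lists had 25 calls. Among the members, Klf5 had the fewest counts and so the largest counting error.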
